A study of Mus musculus with 2 samples.

Results

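The regions described here are the differentially accessible regions (DARs) that the authors placed in the distal intergenic class and whose nearer edge lay more than 10 kb and at most 50 kb from the transcription start site (TSS) of the transcript listed as nearest. They numbered 1076 of the 5650 DARs, with 619 gain DARs and 457 loss DARs. By the study's account, a gain DAR was more accessible, and a loss DAR less accessible, after inhibition of BRD9. The tables hold no fold change, so this direction could not be checked, and every gain and loss below rests on it. The assay was ATAC-seq, in which the Tn5 transposase cuts and tags open chromatin. It was done on bone marrow-derived monocytes (BMDMs) from C57BL/6 mice, given as C57BL/6J and 4 to 6 weeks old in the methods. The labels name tibias and femurs as the source of marrow, and the methods name femurs. All cells were induced towards osteoclasts with M-CSF (50 ng/ml) plus RANKL (100 ng/ml), and received either the vector control (MR + vector) or the BRD9 inhibitor iBRD9 (MR + iBRD9) for 24 h. Each group was 1 library from 5000 cells, so every gain or loss is a difference between 2 libraries with no replicate check, and no test of the treatment was possible. The number of mice behind each library was not given in the sources used here.

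BRD9 is a bromodomain protein that reads acetylated histones and belongs to the non-canonical BAF complex, which moves nucleosomes and so opens or closes DNA. Intergenic regions away from promoters that open in macrophages are often enhancers, where lineage factors such as PU.1 and C/EBP bind together with signal-dependent factors such as AP-1 and NF-kB. In osteoclast precursors, RANKL switches on NF-kB and the AP-1 protein FOS, and these lead to NFATc1, the main regulator of osteoclast genes. An enhancer need not act on the nearest gene, so the gene named beside a DAR gives its place and not its target.

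The sequences of 16 DARs are shown for 3 reasons. They were read from the plus strand of GRCm39, the build of the authors' positions, and run 5′ to 3′. Capitals mark each match to 1 of the 12 motifs searched on both strands, so a motif on the minus strand appears as its reverse complement. These 4 lay nearest to osteoclast or AP-1 genes, or carried many motifs beside a macrophage protease. For Mmp12 the central 300 of its 356 bp are given.
Fos loss DAR, chr12:85536775-85536992: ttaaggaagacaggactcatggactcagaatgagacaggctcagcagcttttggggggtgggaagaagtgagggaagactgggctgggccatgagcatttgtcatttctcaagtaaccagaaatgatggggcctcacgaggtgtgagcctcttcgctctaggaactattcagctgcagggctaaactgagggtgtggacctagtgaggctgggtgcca
ENSMUSG00000114163 gain DAR, chr12:85595346-85595495: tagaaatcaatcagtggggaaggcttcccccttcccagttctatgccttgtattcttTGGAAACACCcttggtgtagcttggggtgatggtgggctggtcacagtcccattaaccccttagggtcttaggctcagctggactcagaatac
Mmp12 loss DAR, chr9:7331914-7332213: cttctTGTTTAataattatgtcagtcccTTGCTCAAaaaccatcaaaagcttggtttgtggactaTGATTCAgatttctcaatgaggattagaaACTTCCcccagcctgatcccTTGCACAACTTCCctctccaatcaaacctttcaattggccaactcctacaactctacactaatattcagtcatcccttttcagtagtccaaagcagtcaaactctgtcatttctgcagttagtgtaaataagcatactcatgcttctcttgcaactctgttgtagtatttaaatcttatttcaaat
Tyrobp gain DAR, chr7:30093796-30094090: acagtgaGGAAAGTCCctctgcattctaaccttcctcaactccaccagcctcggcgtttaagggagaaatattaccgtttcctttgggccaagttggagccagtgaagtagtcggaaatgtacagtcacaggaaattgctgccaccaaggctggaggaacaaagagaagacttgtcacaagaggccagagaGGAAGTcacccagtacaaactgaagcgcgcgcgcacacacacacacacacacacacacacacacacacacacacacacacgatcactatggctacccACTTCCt

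The next 6 belonged to cytokines, a cytokine receptor and a blood transcription factor. The same AP-1 word was present in the gain DAR of Il6 and the first of Il1rl1, and in the loss DARs of Il10 and Gm50380. The second Il1rl1 DAR and the Tal1 DAR held no AP-1 word. The DAR listed for the pseudogene Gm50380 had Il33 as its nearest protein-coding gene.
Il6 gain DAR, chr5:30244952-30245111: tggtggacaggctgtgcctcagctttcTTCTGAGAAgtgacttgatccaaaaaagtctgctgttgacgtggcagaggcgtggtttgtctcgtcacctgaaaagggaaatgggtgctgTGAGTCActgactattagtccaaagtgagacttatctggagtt
Il10 loss DAR, chr1:130915365-130915619: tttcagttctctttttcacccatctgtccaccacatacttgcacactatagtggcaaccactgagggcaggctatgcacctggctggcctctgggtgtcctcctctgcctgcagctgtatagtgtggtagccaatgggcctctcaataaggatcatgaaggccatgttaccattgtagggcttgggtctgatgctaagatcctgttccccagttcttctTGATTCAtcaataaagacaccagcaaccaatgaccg
Il1rl1 gain DAR, chr1:40432555-40432704: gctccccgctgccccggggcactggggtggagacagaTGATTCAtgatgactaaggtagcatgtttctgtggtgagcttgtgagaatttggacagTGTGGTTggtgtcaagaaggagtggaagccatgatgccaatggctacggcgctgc
Il1rl1 gain DAR, chr1:40443712-40443970: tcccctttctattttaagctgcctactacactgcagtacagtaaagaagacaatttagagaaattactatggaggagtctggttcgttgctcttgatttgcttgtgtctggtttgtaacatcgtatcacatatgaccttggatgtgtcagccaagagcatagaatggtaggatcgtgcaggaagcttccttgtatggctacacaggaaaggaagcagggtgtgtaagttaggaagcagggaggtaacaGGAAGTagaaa
Gm50380 loss DAR, chr19:29865027-29865182: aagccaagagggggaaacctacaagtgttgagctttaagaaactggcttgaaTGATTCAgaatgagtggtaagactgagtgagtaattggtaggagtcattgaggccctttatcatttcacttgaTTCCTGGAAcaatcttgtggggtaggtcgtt
Tal1 gain DAR, chr4:114928964-114929113: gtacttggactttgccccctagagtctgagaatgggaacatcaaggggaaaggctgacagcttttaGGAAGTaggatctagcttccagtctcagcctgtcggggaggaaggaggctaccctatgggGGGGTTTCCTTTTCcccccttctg

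The last 6 are a loss DAR beside the bone matrix gene Mepe, 2 pairs in which a gain and a loss DAR lay side by side, and the DAR with the most different motifs.
Mepe loss DAR, chr5:104492454-104492603: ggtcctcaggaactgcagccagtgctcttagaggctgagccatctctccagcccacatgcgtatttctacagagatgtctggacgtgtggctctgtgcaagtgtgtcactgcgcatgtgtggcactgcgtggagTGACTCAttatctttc
Kcnab1 loss DAR, chr3:64842486-64842649: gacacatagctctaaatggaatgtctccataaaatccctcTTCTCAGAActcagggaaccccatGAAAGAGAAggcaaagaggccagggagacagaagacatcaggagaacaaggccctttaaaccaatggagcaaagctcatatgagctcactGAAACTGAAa
Kcnab1 gain DAR, chr3:64843694-64843851: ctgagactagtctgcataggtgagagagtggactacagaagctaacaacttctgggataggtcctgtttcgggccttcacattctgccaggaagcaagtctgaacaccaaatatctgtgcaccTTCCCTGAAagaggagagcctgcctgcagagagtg
Gm45029 gain DAR, chr16:76442660-76442930: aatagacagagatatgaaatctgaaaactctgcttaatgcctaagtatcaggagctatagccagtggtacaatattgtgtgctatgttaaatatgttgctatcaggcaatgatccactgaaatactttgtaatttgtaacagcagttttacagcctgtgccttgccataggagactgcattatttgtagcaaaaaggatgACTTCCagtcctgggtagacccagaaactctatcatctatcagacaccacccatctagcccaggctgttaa
Gm45029 loss DAR, chr16:76443076-76443235: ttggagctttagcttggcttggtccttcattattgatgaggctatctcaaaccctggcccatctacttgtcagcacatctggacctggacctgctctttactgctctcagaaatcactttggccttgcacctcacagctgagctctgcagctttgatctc
Gm17366 loss DAR, chr14:106918753-106918955: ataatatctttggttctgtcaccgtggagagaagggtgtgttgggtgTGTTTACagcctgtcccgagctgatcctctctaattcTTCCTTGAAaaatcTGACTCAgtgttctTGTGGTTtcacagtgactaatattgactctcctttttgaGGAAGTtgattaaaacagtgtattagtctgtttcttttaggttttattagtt

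Gain DARs outnumbered loss DARs at this distance. They made up 57.5% of the 1076 DARs, with a 95% Wilson interval of 54.6 to 60.4%. Over all DARs 55.9% were gain and 44.1% were loss, so the share at 10 to 50 kb was within its counting error of the background. Of 473 intergenic DARs up to 10 kb from a TSS, 56.7% (52.2 to 61.1%) were gain. Of 751 intergenic DARs beyond 50 kb, 52.6% (49.0 to 56.1%) were gain. The DARs at 10 to 50 kb exceeded those beyond 50 kb by 4.93 percentage points, with a Newcombe interval of 0.300 to 9.55 points, and exceeded those up to 10 kb by 0.868 points (-4.44 to 6.23). Here and below, intervals cover counting error over regions of the same 2 libraries and not the spread between mice or cultures.

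The gain and loss DARs were divided in much the same way between the sides of the listed gene. Upstream lay 335 gain and 237 loss DARs, a gain share of 58.6% (54.5 to 62.5%). Downstream lay 284 gain and 220 loss DARs, a gain share of 56.3% (52.0 to 60.6%). The difference of 2.22 points had an interval of -3.69 to 8.11 points, which includes 0. Upstream DARs were 53.2% (50.2 to 56.1%) of the total at 10 to 50 kb, 57.1% (52.6 to 61.5%) up to 10 kb and 49.8% (46.2 to 53.4%) beyond 50 kb. Downstream DARs lay past the end of the listed transcript by a median of 20330 bp (18910 to 21491).

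DARs thinned out with distance. From 10 to 20 kb there were 245 gain and 170 loss DARs, from 20 to 30 kb 167 and 133, from 30 to 40 kb 115 and 88, and from 40 to 50 kb 92 and 66. The gain share was 59.0% (54.2 to 63.7%) in the nearest of these bins and 58.2% (50.4 to 65.6%) in the farthest, a difference of 0.808 points (-8.01 to 9.87). The highest share in any bin and side was 65.8% (54.3 to 75.6%), for the 73 DARs at 40 to 50 kb upstream, and the lowest was 51.8% (41.3 to 62.1%), for the 85 DARs at the same distance downstream. The median distance was 23215 bp (21918 to 24760) for gain and 23946 bp (21834 to 25272) for loss DARs.

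**Figure D1:**
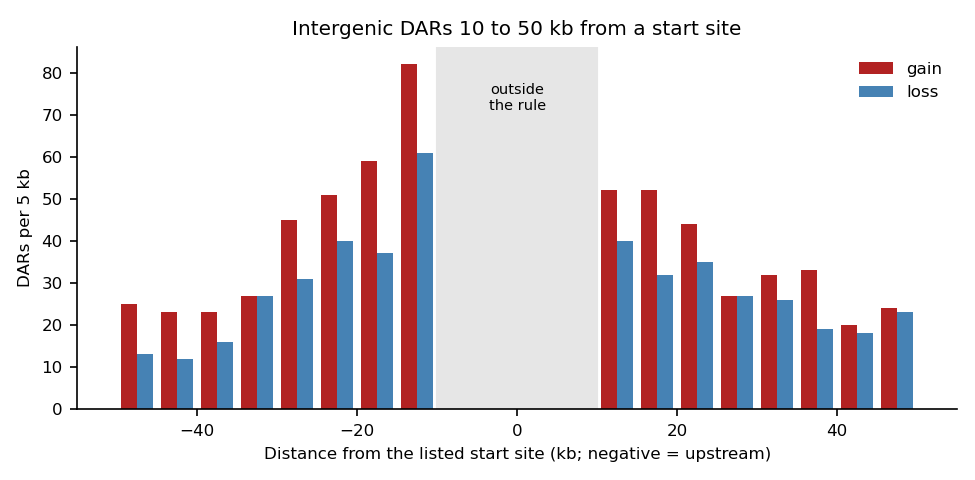
Number of gain (red) and loss (blue) DARs in each 5 kb of signed distance from the listed TSS, in kb, where negative values are upstream; the grey band holds no DAR by the rule. The tallest bars, just upstream of -10 kb, hold 82 gain and 61 loss DARs, and numbers fall away from the gene on both sides.

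**Figure D2:**
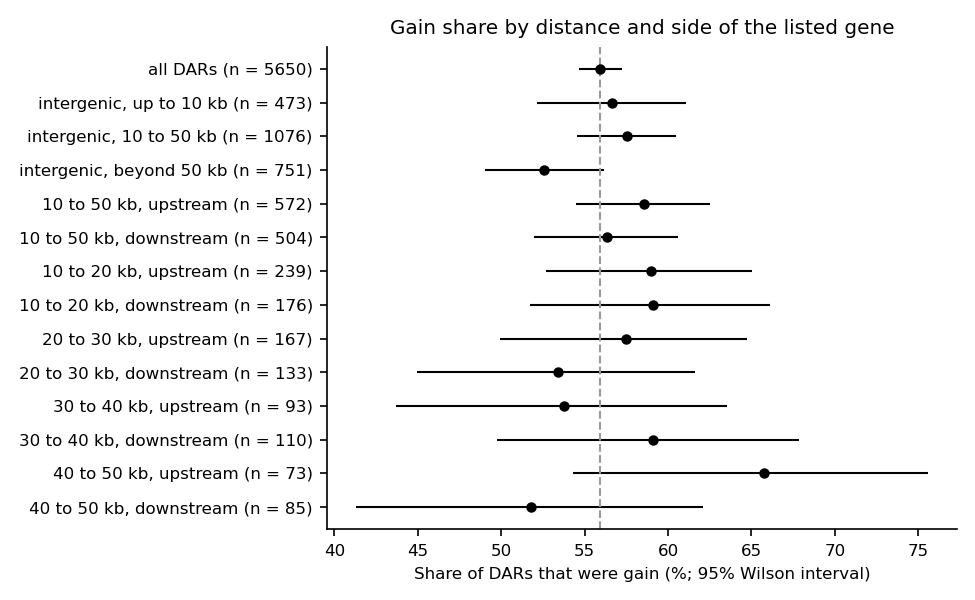
Share of DARs that were gain, in percent, for all DARs, for 3 distances of intergenic DARs and for sides and 10 kb bins of the DARs at 10 to 50 kb. Points are shares, lines their 95% Wilson intervals, and the dashed line is the 55.9% of all DARs, which every interval shown includes.

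The limits of the rule fell between DARs at similar distances from their listed TSS. The DARs just outside 10 kb were a loss DAR of Gm11443 at 9944 bp and a gain DAR of Zfp985 at -9947 bp, and those just inside were a loss DAR of Gm37786 at 10002 bp and a gain DAR of Cfap418 at -10034 bp. At the far limit, the last DARs inside were a gain DAR of Gm8856 at -49622 bp and a loss DAR of Derl1 at 49779 bp, and the closest outside were gain DARs at 50001 and 50043 bp. Negative distances are upstream of the TSS throughout.

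The listed nearest gene was seldom a protein-coding gene. In GENCODE M39 it was a pseudogene for 33.1% of the 1076 DARs (30.3 to 36.0%), a protein-coding gene for 27.0% (24.5 to 29.8%), a long non-coding RNA (lncRNA) for 23.4% (21.0 to 26.0%), an unvalidated transcript of the TEC type for 5.76%, a small nucleolar RNA for 4.09% and a small nuclear RNA for 3.81%. For 20 DARs the gene identifier had no entry. Over all DARs 48.8% were listed with a protein-coding gene. Gain made up 60.5% (54.8 to 65.9%) of the 291 DARs listed with protein-coding genes and 56.2% (51.0 to 61.2%) of the 356 listed with pseudogenes, a difference of 4.30 points (-3.34 to 11.8). The nearest protein-coding TSS of M39 was a median of 72699 bp away (63974 to 87357). It lay 10 to 50 kb away for 437 DARs, beyond 50 kb for 630 and within 10 kb for 6. Of the 1076 DARs, 272 lay inside the body of an lncRNA of M39, and 791 overlapped no gene body there.

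The DARs had 1012 different nearest genes, of which 564 had gain DARs only, 415 had loss DARs only and 33 had both. A total of 952 genes had 1 of the DARs, 56 had 2 and 4 had 3. Among the 56 genes with 2 DARs, both were gain at 17, both were loss at 9, and directions were opposite at 30. At a gain share of 57.5%, opposite directions would be common among pairs taken at random. These counts and those of pairs below are therefore descriptions only. For the 60 genes with several DARs, the DARs were all upstream at 32, all downstream at 17 and on both sides at 11. Gain DARs alone were found at 12 of the 32 upstream genes, 5 of the 17 downstream genes and 1 of the 11 with both sides.

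The 4 genes with 3 DARs were all non-coding. The small nuclear RNA gene Gm25705 had gain DARs at 19671, -25328 and -45848 bp. Gm37831 had gain DARs at 23186 and 38930 bp and a loss DAR on the other side at -28617 bp. The pseudogene Gm4950 had gain DARs at 39766 and -20162 bp and a loss DAR at 24213 bp. The lncRNA Gm46189 had a loss DAR at -33477 bp between gain DARs at -39062 and -22902 bp, and its nearest protein-coding gene was Lilrb4b, a leukocyte immunoglobulin-like receptor gene.

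Among protein-coding genes, 5 had a gain and a loss DAR. Kcnab1, a beta subunit of potassium channels, had the closest pair, with a loss DAR at -13968 bp and a gain DAR at -12766 bp, 1044 bp apart. Nup160, of the nuclear pore, had a loss DAR at -35294 bp and a gain DAR at -27009 bp. At Col5a1, a fibrillar collagen gene, the gain DAR was farther out at -27596 bp and the loss DAR nearer at -16667 bp. Fut8, which adds core fucose to N-glycans, had the same order from the listed TSS, with gain at -47051 bp and loss at -17374 bp. That gain DAR also lay 13086 bp downstream of another protein-coding TSS of Fut8 in M39, so the order rests on the listed transcript. Adgrl2, an adhesion G protein-coupled receptor, had gain at 26849 bp and loss at 48355 bp. The other 5 protein-coding genes with 2 DARs had 1 direction and were chosen for mention after their values were seen. Il1rl1, the receptor for interleukin 33, had gain DARs at -36026 and -24760 bp. Npas3, Pmfbp1 and Zfp992 also had 2 upstream gain DARs each. Mepe, a phosphoglycoprotein of bone and tooth matrix, had loss DARs at 19259 and 33371 bp.

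**Figure D3:**
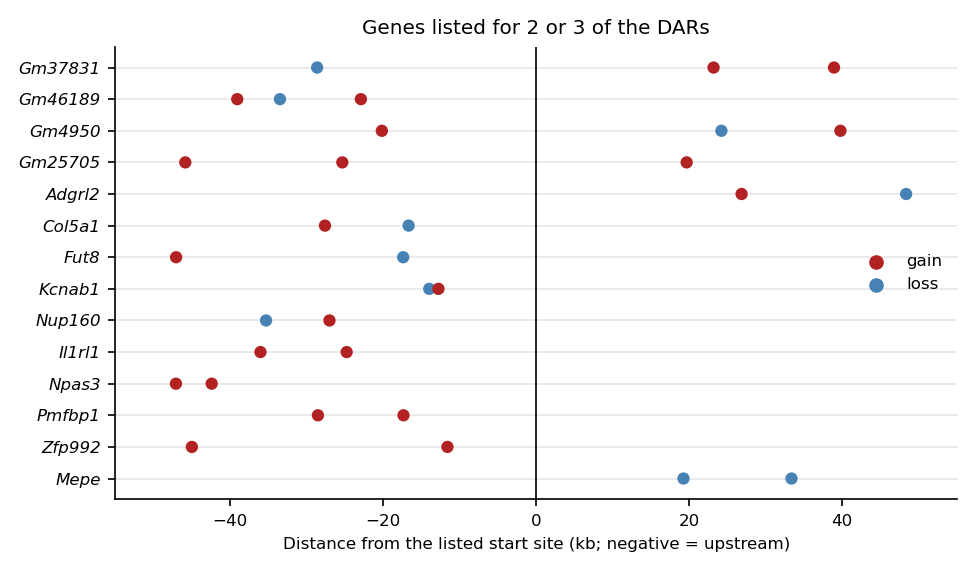
Signed distance from the listed TSS, in kb, of the gain (red) and loss (blue) DARs of the 4 genes with 3 DARs and the 10 protein-coding genes with 2. Points are single DARs, and the vertical line is the TSS; the 2 DARs of Kcnab1 nearly touch, and those of Mepe are the only pair of loss DARs.

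A few neighbouring DARs of opposite direction lay very close together. Within 1 kb there were 2 neighbouring pairs, and both joined a gain and a loss DAR. At the lncRNA gene Gm45029 the gap was 145 bp, with the gain DAR at -34471 bp and the loss DAR at -34166 bp. At the pseudogene Gm19018 it was 151 bp, with the loss DAR at -10544 bp and the gain DAR at -10882 bp. Of 10 pairs within 5 kb, 5 had the same direction, and of 23 pairs within 10 kb, 9 did. Within 50 kb the numbers were 36 same and 34 opposite, and within 100 kb 53 same and 52 opposite. Gm21614, a pseudogene, had a gain and a loss DAR 1008 bp apart, and Gm42526 had a pair 2665 bp apart.

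Some genes had a DAR at a promoter as well. Among the listed genes, 154 had another DAR of any class and 19 had 1 in the promoter class, giving 22 pairs of a promoter DAR and a DAR at 10 to 50 kb, of which 11 had the same direction. The gain DAR was paired with a gain promoter in 7 and a loss promoter in 5, and the loss DAR with a loss promoter in 4 and a gain promoter in 6. The following were chosen after their values were seen. Pabpc1, the poly(A)-binding protein, had a gain DAR covering a TSS and another gain DAR at 18559 bp. Vrk1, a nuclear kinase, had a loss DAR covering a TSS and another loss DAR at -47206 bp. Arc, an immediate early gene, had a gain DAR at -818 bp and a loss DAR at -14886 bp. Agtpbp1, a carboxypeptidase that acts on tubulin, had a loss DAR covering a TSS and a gain DAR at 10671 bp. The 2 DARs of a gene could be listed with different transcripts and so different start sites.

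Lists of genes for osteoclasts, macrophages and the processes the study raised were set beside the nearest genes. Of 811 genes in 17 lists that are in the annotation, 21 (2.59%, 1.70 to 3.93%) were the nearest gene of 1 DAR each, 14 gain and 7 loss. Over all 21770 protein-coding genes of M39, 281 (1.29%, 1.15 to 1.45%) were nearest to a DAR. The lists were chosen with earlier results known, and the counts per list below are descriptions. The gain share of 66.7% had a Wilson interval of 45.4 to 82.8%, which includes the 55.9% of all DARs. When each DAR was instead given its nearest protein-coding TSS in M39 at 10 to 50 kb, 33 list genes had a DAR, 18 gain and 15 loss, and 17 of the genes named below were added that way.

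Osteoclast genes were on both sides of the comparison. Of 36 genes for osteoclast differentiation and resorption, 1 had a gain DAR and 1 had a loss DAR. The loss DAR belonged to Fos, an AP-1 subunit that osteoclast formation requires, and lay at 15090 bp, beyond the end of the gene, with a width of 218 bp and a GC content of 53.2%. It held none of the 12 motifs. A gain DAR of 150 bp lay in the same interval between Fos and Jdp2, at -49520 bp from the TSS of Jdp2, which encodes another AP-1 family protein, and at 18974 bp from its listed gene ENSMUSG00000114163. It held an NFAT match at position 58 and an overlapping NF-kB match at position 59 of the sequence shown above. The gain DAR of Tyrobp, the DAP12 adaptor that passes on co-stimulatory signals in osteoclast precursors, lay at -19095 bp and held 2 PU.1 matches and an NF-kB match in 295 bp. Src, the kinase needed for the ruffled border, was the nearest protein-coding gene of a loss DAR at 44313 bp with an AP-1 match. That DAR was listed with the pseudogene Gm14279, which also had a gain DAR 6228 bp away.

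Regulators of signalling and transcription had DARs of both directions. Of 52 genes for AP-1, NF-kB, NFAT and MAPK signalling, 1 was nearest to a gain DAR and 3 to loss DARs. Nfkbiz, an atypical inhibitor of NF-kB, had the gain DAR, at 19059 bp. The loss DARs were those of Fos, of Map2k6 at -19170 bp, a kinase that activates p38, and of Spred1 at -12989 bp, an inhibitor of the RAS pathway. By protein-coding TSS, Map3k14, the kinase of the non-canonical NF-kB pathway, had a gain DAR at -14430 bp, and Dusp6, a phosphatase of ERK, had a loss DAR at -38978 bp. Of 61 myeloid and haematopoietic transcription factors, 2 were nearest to gain DARs and 0 to loss DARs. Etv3, an ETS family repressor, had its gain DAR at -12616 bp. Tal1, a regulator of blood stem cells, had its gain DAR at 12259 bp from the listed TSS and 8948 bp from another. Irf4 had a gain DAR at -36458 bp by protein-coding TSS, with an E-box and an NFAT match.

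Cytokine and receptor genes, the longest list, had DARs of both directions. Of 112 genes, 5 were nearest to gain DARs and 2 to loss DARs. Il6, an inflammatory cytokine, had a gain DAR of 160 bp at 26633 bp with an AP-1 match at position 118 and a STAT match at position 28. Il10, an anti-inflammatory cytokine, had a loss DAR of 255 bp at -31963 bp with an AP-1 match at position 220. The other gain DARs were those of Il7r at -25802 bp, Tgfbr1 at -13639 bp, Tnfsf8 at 45416 bp and Il2rb at -16158 bp. For Il2rb, M39 has another TSS only 63 bp from the DAR (-63 bp), so its place in the rule rests on the listed transcript. Ccr3, the eotaxin receptor, had a loss DAR at 31654 bp with PU.1, C/EBP and CTCF matches. By protein-coding TSS, Bmp2 had a gain DAR at -45952 bp, Kit a gain DAR at -33504 bp and Il33 a loss DAR at -37301 bp with AP-1 and STAT matches. The gene for the receptor of interleukin 33, Il1rl1, had 2 gain DARs as given above.

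Effector genes of macrophages and osteoclasts had DARs of both directions. Of 60 genes for the lysosome, the proton pump and proteases, 0 had a gain DAR and 1 had a loss DAR. This was Mmp12, macrophage elastase, with a loss DAR of 356 bp at -12140 bp that held 5 different motifs, namely AP-1, PU.1, C/EBP and both forkhead words. Plekhm1, an adaptor for lysosome traffic in osteoclasts, had a gain DAR at -29671 bp by protein-coding TSS. Of 61 macrophage surface and Fc receptor genes, 1 was nearest to a loss DAR, Cd9 at 36317 bp, a tetraspanin that also stands among the fusion genes. The nearest protein-coding TSS to that DAR was that of Plekhg6, at -45664 bp. Marco, a scavenger receptor, had a loss DAR at 49622 bp by protein-coding TSS. Of 73 genes for integrins, adhesion, fusion and podosomes, 1 was nearest to a gain DAR, the PI3-kinase subunit Pik3r1 at 37549 bp, and 1 to a loss DAR, Cd9. By protein-coding TSS, the kinases Fyn at -32617 bp and Ptk2 at -19177 bp had loss DARs with AP-1 matches, and Vcam1 at -42703 bp had a gain DAR.

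Several further lists, among them processes that the study raised from its DARs, had at most 1 listed gene each. Of 74 genes of phospholipid and glycerolipid biosynthesis 0 were nearest to a DAR, although by protein-coding TSS Pik3cb had a gain DAR at -42720 bp and Pik3c2a a loss DAR at -13562 bp. Of 41 genes of catecholamine and dopamine metabolism, the adrenergic receptor gene Adrb1 had a gain DAR at -24548 bp. Of 48 genes of BAF complexes and bromodomain proteins, Brd1 had a gain DAR at 38696 bp from the listed TSS. The nearest protein-coding TSS to that DAR was that of Zdhhc25, at 61653 bp. None of the 71 interferon and innate sensing genes was listed, and Ifi204 had a loss DAR at -42339 bp by protein-coding TSS. Markers of B cells, T and NK cells, neutrophils and mast cells, and erythroid cells and megakaryocytes were likewise not listed, except that Ly6g had a loss DAR at 24293 bp by protein-coding TSS. Of 28 osteoblast and stromal markers, Sp7 had a gain DAR at -10847 bp, and at -7094 bp from another TSS. A list of changed regions does not show which cell types were in the cultures.

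**Figure D4:**
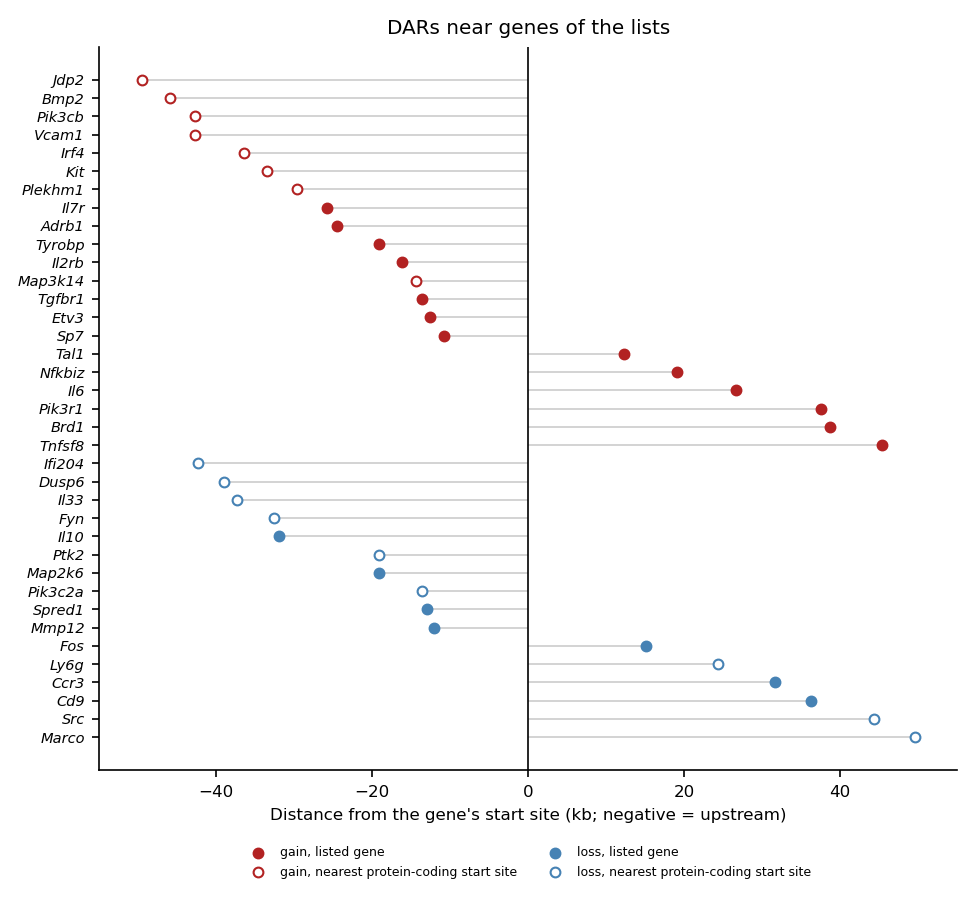
Signed distance in kb from the TSS of 37 list genes to their DAR, gain in red and loss in blue. Filled points use the listed gene and open points the nearest protein-coding TSS where another gene was listed; DARs of both directions stand upstream and downstream and spread over the whole range from 10 to 50 kb.

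The DARs were short and of similar size in either direction. The median width was 184 bp (180 to 189) for gain and 189 bp (182 to 192) for loss DARs, and 221 of the 1076 had the smallest width in the tables, 150 bp. Of the gain DARs 38 were 300 bp or wider, and of the loss DARs 23. The widest gain DAR, of 569 bp, lay at 12204 bp from 4930403O18Rik, followed by those of Gm43699 (551 bp), Gm36026 (492 bp), Rpl21-ps5 (469 bp) and Slc1a3 (466 bp), a glutamate transporter gene. The widest loss DAR, of 429 bp, lay at 10861 bp from the beta-defensin gene Defb40, followed by those of Ldhb-ps (422 bp), Gm14453 (420 bp), 4930519D14Rik (407 bp) and Hs6st3 (392 bp), a heparan sulfate sulfotransferase gene.

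The DARs were spread over all 19 autosomes. Gain DARs were more numerous on 16 of the 19 autosomes, loss DARs on chromosomes 6 (30 gain, 31 loss) and 7 (26 gain, 30 loss), and the numbers were equal on chromosome 14. Among the autosomes the gain share was highest on chromosome 16, at 69.6% (55.2 to 80.9%), and chromosome 11, at 68.4% (52.5 to 80.9%). Both intervals include the 55.9% of all DARs. Chromosome 9 had 0.571 DARs per Mb and chromosome 11 had 0.312, the extremes of the autosomes. Chromosome X had 2 DARs and chromosome Y had 1, or 0.0118 and 0.0109 per Mb. The numbers of all DARs per chromosome were not set beside these, so they are not given as traits of this distance. Unplaced sequence held 3 DARs, all gain.

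The DARs were richer in G and C than the DNA beside them. The median GC content was 49.3% (48.7 to 49.8%) in gain and 49.0% (48.4 to 49.5%) in loss DARs, and 42.4% and 42.5% in equally long stretches 1 kb up and down. GC content was above the mean of both flanks in 82.3% (79.9 to 84.5%) of the DARs, which was the share in all 5650 DARs too, at 82.4%. Intergenic DARs up to 10 kb had a median GC content of 49.4% (48.7 to 50%), and those beyond 50 kb a lower one of 47.3% (46.8 to 47.9%). At least 1 CpG was present in 73.8% of the DARs, with a median of 1. The study's methods name no correction for GC content, and its part in the width or direction of a DAR was not tested.

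PU.1 and AP-1 words were the motifs most raised over the flanks in percentage points, by 7.30 (4.62 to 10.1) and 5.99 (3.93 to 8.23). AP-1 (TGANTCA) was present in 11.6% (9.84 to 13.7%) of the DARs and 5.62% (4.73 to 6.68%) of the flanks, and PU.1 (GGAAGT, an ETS word) in 19.3% (17.1 to 21.8%) and 12% (10.7 to 13.5%). CTCF (CAGNGGGC) was present in 4.28% of the DARs and 2.28% of the flanks. Other words went the other way, with the short forkhead word (TAAACA) in 7.62% of the DARs and 15.0% of the flanks, and NFAT (TGGAAA) in 14.8% and 21.0%. The interferon response element (GAAANNGAA) was likewise lower, in 4.74% and 7.99%, a difference of -3.25 points (-4.91 to -1.46). So was C/EBP (TTGCNNAA), in 7.53% and 10.1%, a difference of -2.56 points (-4.52 to -0.448). GC content differed between DARs and flanks, and its part in these shares was not tested. Over all 5650 DARs, 10.8% had AP-1, 19.9% PU.1, 14.5% NFAT, 8.97% the short and 2.14% the long forkhead word, 7.49% C/EBP, 5.61% CTCF, 4.74% RUNX, 4.71% the interferon response element, 4.64% STAT, 4.05% NF-kB and 3.56% the E-box. Intergenic DARs up to 10 kb had AP-1 in 10.8% and PU.1 in 20.9%, near the shares at 10 to 50 kb. Those beyond 50 kb had AP-1 in 8.26% and PU.1 in 13.8%, lower than those at 10 to 50 kb by 3.36 (0.542 to 6.07) and 5.48 (2.00 to 8.85) points. For the other motifs the interval of this difference included 0, and none was adjusted for the 12 motifs. DARs beyond 50 kb were also narrower (median 176 against 186 bp) and lower in GC content (47.3 against 49.2%). The part of width and GC content in this difference was not tested.

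No motif separated gain from loss DARs beyond counting error over their whole width. AP-1 and NFAT did in a fixed 200 bp window around the middle of each DAR. There the gain minus loss differences were -4.27 points (-8.48 to -0.250) and 4.76 points (0.386 to 8.96), not adjusted for the 12 motifs. The median width of the DARs was 186 bp, so for many of them this window took in DNA outside the DAR. Over the whole width, AP-1 was present in 62 of 619 gain DARs (10.0%) and 63 of 457 loss DARs (13.8%), a difference of -3.77 points (-7.83 to 0.107). RUNX (TGTGGTT) was present in 6.14% of gain and 3.72% of loss DARs, a difference of 2.42 points (-0.286 to 5.0), the interferon response element (GAAANNGAA) in 5.65% and 3.50% (2.15 points, -0.471 to 4.65), and NFAT in 16.2% and 12.9% (3.24 points, -1.08 to 7.41). PU.1 was in 19.4% and 19.3%. The short forkhead word was in 7.92% of gain and 7.22% of loss DARs, and the long forkhead word (GTAAACA), which contains it, in 1.78% and 1.75%. C/EBP (TTGCNNAA) was in 7.11% and 8.10%, STAT (TTCNNNGAA) in 5.49% and 6.35%, NF-kB (GGNNTTTCC) in 4.20% and 3.50%, CTCF in 3.72% and 5.03%, and the E-box (CACGTG) in 1.94% and 1.53%. Over the whole width, every interval of a gain minus loss difference for these 12 motifs included 0. The NFAT and NF-kB words can overlap, and a match is a run of letters that does not show binding of a factor.

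**Figure D5:**
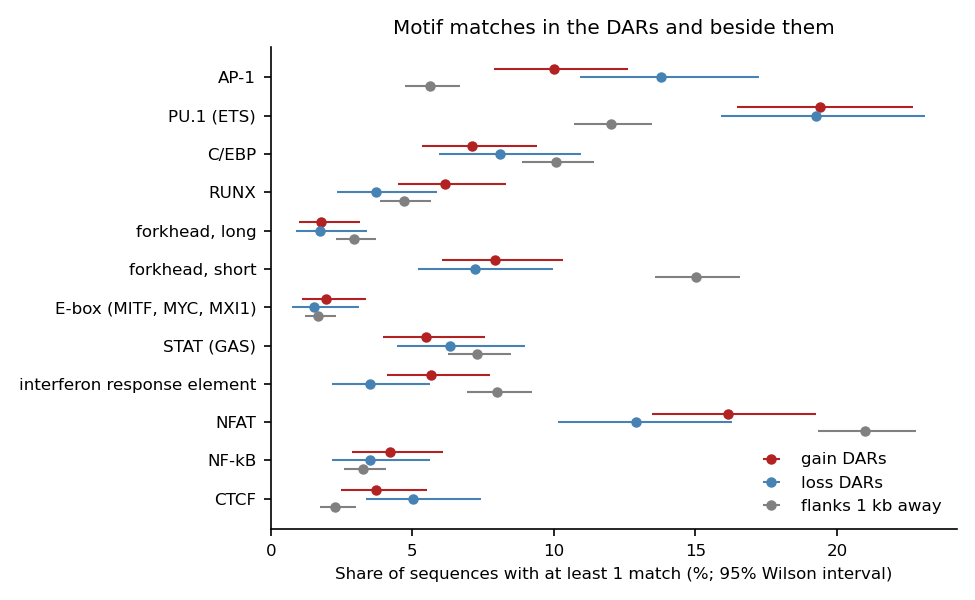
Share of gain DARs (red), loss DARs (blue) and flanks 1 kb away (grey) with at least 1 match to each of 12 motifs, in percent, with 95% Wilson intervals. AP-1 and PU.1 stand above their flanks in both directions, the short forkhead word and NFAT stand below, and gain and loss intervals overlap for every motif.

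A total of 452 DARs (42.0%) held none of the 12 motifs, 392 held 1 and 232 held 2 or more, and the shares with none were 42.6% in gain and 41.1% in loss DARs. The most different motifs, 6, were in a loss DAR of 203 bp at 16777 bp from the pseudogene Gm17366, where the AP-1 word stood at position 99, RUNX at position 113 and PU.1 at position 152 of the sequence shown above. The loss DARs of Mmp12 and of the pseudogene Gm6236 followed with 5 each. Like that of Gm17366, they held the long forkhead word, which contains the short one, so that match counted as both motifs. For Mmp12 the long match was not within the stretch shown, which held a separate short match at position 6. Among gain DARs the most was 4, as in those of Slc1a3 and of Tnfrsf17, the BCMA receptor gene, at -27575 bp. In the adjacent pair of Gm45029, the gain DAR held a PU.1 match at position 201 and the loss DAR held no motif, and in that of Kcnab1 both DARs held a STAT match, at position 41 in the loss and position 124 in the gain DAR.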

How the data were processed

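The data were ATAC-seq regions from BMDMs in osteoclast induction, as 1 MR + vector and 1 MR + iBRD9 library. According to the methods and the submitters' processing notes, the authors trimmed reads with cutadapt 1.9.1, aligned them to GRCm39 with Bowtie2 2.2.6, used Picard 1.126 to remove duplicates and bring the mapped reads of each library to 1 depth, called peaks in each library with MACS3 on paired-end fragments, merged them into a consensus set and kept as DARs those changed by 0.5 or more, up or down, in log2 fold change. The authors deposited 3 tables (gain, loss and both), whose values are positions, widths and signed distances in bp, with a nearest transcript and an annotation class. No column gives reads, signal, significance or size of change. The depth of a DAR is therefore unknown, and the planned account of signal or fold change could not be made. A threshold on fold change also cannot show how each region would vary between repeats.

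All 5650 distances equalled the nearer edge minus the listed TSS, and all regions matched the gain or the loss table by coordinates. Chromosomes 20 and 21 of the tables are X and Y. Genes, types and protein-coding start sites came from GENCODE M39 (GRCm39), and sequence from GRCm39. Shares carry 95% Wilson intervals, differences Newcombe intervals and medians order-statistic intervals. Motifs were searched as exact letters on both strands of each DAR and of equally long stretches 1 kb up and down. The interval, motif and nearest start site functions were tested on simulated data. Sequence was read with pysam 0.24.0, and values were computed with pandas 2.3.3, numpy 2.4.6 and scipy 1.17.1 under Python 3.11.15.

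The regions, gene lists and motifs were chosen with earlier results of these data known. Genes named are those of the lists or the paper that were nearest to a DAR, genes with 3 DARs, protein-coding genes with both directions, the 5 widest DARs of each direction, the DARs at the limits of the rule, and those with the most motifs; others are marked as chosen after their values were seen. A gene under this rule is counted but not reported here. Alternatives covered the distance range, chromosomes, merging, the annotation, the width and the window for motifs.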

Additional observations from a re-analysis of the deposited data

How the results depend on the processing

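No paired analysis was possible because each group had 1 library, and for the same reason no library could be left out. A higher fold change limit could not be tried, since the tables hold no fold change. The gain share ranged from 56.8 to 57.6% over 9 alternatives, all inside its counting interval. Some of these could not change it. Neighbours at most 1 kb apart all had opposite directions, so counting like ones once left the same 1076 DARs and gene counts. No region overlapped both the gain and the loss table, so matching by any shared base also left the share fixed. With these fixed outcomes counted, 64 of 72 alternatives over 27 results stayed inside the interval or within 1.5 times of the count. The exceptions used protein-coding start sites instead of the listed ones or left out DARs of the smallest width. The distance of 10 to 50 kb thus rests on the listed TSS, since 630 of the 1076 DARs lay beyond 50 kb from a protein-coding one. Among intergenic DARs whose nearest protein-coding start site lay 10 to 50 kb away, 297 listed genes had gain DARs only, 226 had loss DARs only and 15 had both. Over the DARs as listed, the median distance to a protein-coding start site was 70845 bp for gain and 80780 bp for loss DARs. Among DARs wider than 150 bp, 20 genes had both directions, and median widths were 195 bp for gain and 197 bp for loss DARs. Motifs were also searched in a 200 bp window around the middle of each DAR, which reached beyond the narrower DARs. There the gain minus loss difference was -4.27 points for AP-1 (-8.48 to -0.250) and 4.76 points for NFAT (0.386 to 8.96). These intervals no longer include 0 and are not adjusted for the 12 motifs compared. In the flanks the differences were -0.877 and 0.946 points.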
